A study of Homo sapiens with 94 samples.

Results

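The circadian clock genes ARNTL (also called BMAL1), CLOCK, NPAS2, PER1, PER2, PER3, CRY1, NR1D1, NR1D2 and DBP were examined in xenografts of the malignant pleural mesothelioma line NCI-H226. They were taken by gene symbol from a table of FPKM values (read fragments scaled to transcript length and library size), in which they are 10 of 20239 gene IDs. Each symbol had a row, and none of the 10 genes was at 0 in any of the 91 libraries used for the tests.

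The mammalian clock is a transcriptional feedback loop that runs in most tissues with a period of about a day. ARNTL pairs with CLOCK or its close relative NPAS2 and activates genes through E-boxes, among them the PER and CRY genes, whose proteins return to the nucleus and repress that pair. ARNTL also drives NR1D1 and NR1D2 (REV-ERB alpha and beta), nuclear receptors that repress ARNTL through ROR elements, and DBP, a PAR bZIP factor that acts on D-boxes in output genes. In a tissue whose cells run in phase, ARNTL and DBP transcripts peak at nearly opposite times of day, and PER1 also responds acutely to glucocorticoids and other signals.

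NCI-H226 is an established human line with a deletion of NF2, a Hippo pathway suppressor. All tumors were grown subcutaneously in female SCID mice, which lack mature T and B cells, so the 94 libraries come from 1 line in 1 host strain. The mice received 1 oral administration of the covalent TEAD inhibitor K-975 at 30, 100 or 200 mg/kg, or its vehicle (ethanol, Solutol and acidified glucose), or nothing, and tumors were taken in 3 studies at 1 h, 3 to 6 h and 24 h. The dosing volume was 20 mL/kg for the vehicle and the highest dose, and 10 mL/kg for both lower doses. Every study had 5 untreated tumors. The 1 h and 24 h studies had 5 tumors per dose and 5 and 4 vehicle tumors, each treatment in 1 cage group. The 3-6 h study had 10 tumors for every dose and for vehicle, housed as 2 cage groups, without a record of which were sampled at 3 h and which at 6 h. The labels give no clock time of dosing or sampling. The study, the time after dosing and any difference in the hour of sampling therefore cannot be told apart in a comparison between studies, nor can cage and treatment at 1 h and 24 h.

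Of the 94 libraries, 91 had between 11344 and 11665 genes at 1 FPKM or more. The other 3 (200 mg/kg 1 h replicate 1, 100 mg/kg 24 h replicate 5 and 30 mg/kg 24 h replicate 1) had 8531, 7196 and 702 such genes and were left out of the main fit, which tested 13036 genes. The mesothelial markers calretinin (CALB2), mesothelin (MSLN) and WT1 were present in every one of the 91 libraries, at 404 to 819, 173 to 365 and 18.8 to 41.8 FPKM. Of 13 host-cell markers, the B cell, lymphatic and erythroid genes MS4A1, LYVE1 and HBB were at 0 in all 91 libraries and the T cell gene CD3E in 90, while COL1A1 (318 to 951 FPKM) and CD68 (40.5 to 265 FPKM) were high in all. PDGFRB was also present in every library, at 21.9 to 46.7 FPKM. Other leukocyte, macrophage and endothelial markers were low. PTPRC had a median of 0.168 FPKM and was at 0 in 24 libraries. CSF1R had a median of 0.767 FPKM, and PECAM1 was at 0 in 79 libraries. In bulk tumors fewer cells of a type and less RNA per cell cannot be told apart. The host-cell markers are human gene IDs, while the host is a mouse. How mouse reads were treated is not given in the sources used here. The marker values therefore cannot be assigned to host or tumor cells.

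Promoter sequence was available for 10 of 10 members, from RefSeq on GRCh38.p14, as windows of 250 bases before and 50 after each start. They were searched on both strands for the letters through which the loop is known to act. The E-box CACGTG, which stands in 7.26% of 35116 promoter windows, was found in NR1D2 (2 sites) and PER1. The variant CACGTT (5.34%) was found in CLOCK, NR1D1, PER2 and CRY1, the D-box TTATGTAA (0.886%) in NR1D2 and PER3, its variant TTACGTAA (0.125%) in PER2, and the ROR element TAGGTCA (1.85%) in ARNTL. The stretches below are part of these letter matches, with the match in capitals on the strand of the gene. Whether these sites act in the loop was not tested. The CACGTT matches of CLOCK, PER2 and CRY1 and the D-box of NR1D2 are not shown. For NR1D1 the capitals are the reverse complement of the letters searched.
NR1D2 E-box, 155 bases before the start, chr3:23945951-23945986, plus strand: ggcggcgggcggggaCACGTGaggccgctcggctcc
NR1D2 E-box, 105 bases before the start, chr3:23946001-23946036, plus strand: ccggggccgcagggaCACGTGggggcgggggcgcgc
PER1 E-box, 173 bases before the start, chr17:8152557-8152592, minus strand: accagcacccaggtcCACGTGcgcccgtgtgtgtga
NR1D1 E-box variant, 168 bases before the start, chr17:40100737-40100772, minus strand: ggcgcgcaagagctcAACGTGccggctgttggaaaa
PER3 D-box, 177 bases before the start, chr1:7784099-7784136, plus strand: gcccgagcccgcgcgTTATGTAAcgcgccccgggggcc
PER2 D-box variant, 3 bases before the start, chr2:238288596-238288623, minus strand: ccgctgcggcTTACGTAAccgccgccgg
ARNTL ROR element, from base 31 of the transcript, chr11:13277810-13277836, plus strand: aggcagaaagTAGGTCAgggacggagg
These letters say what the windows hold, and binding was not measured. The starts are those of RefSeq transcripts and can differ from the ends of the gene loci in the table. The PER1 and NR1D2 E-boxes shown lie inside the table loci of their genes. NPAS2 and DBP had none of the 5 motifs in their windows, which says nothing of sites elsewhere in the genes.

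In GRCh38 coordinates of the table, the genes central to the results are NR1D1 (chr17:40092787-40100725, minus strand), DBP (chr19:48630030-48637438, minus strand), PER1 (chr17:8140472-8156506, minus strand), ARNTL (chr11:13277798-13387266, plus strand) and PER3 (chr1:7784320-7845177, plus strand). Some share exonic bases with a gene on the opposite strand in GENCODE 29. NR1D1 shares 263 of its 2772 exonic bases with THRA, DBP shares 661 of 6544 with SPHK2, and PER3 shares 868 of 8099 with UTS2. Whether the counting used strand is not given in the sources used here, so reads from these stretches may be split or added between partners.

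Transcript levels, which FPKM gives per length, were ordered over the 15 untreated tumors of the 3 studies together. NPAS2, the CLOCK relative, was highest at 20.0 ± 6.76 FPKM (SD, n = 15). NR1D2 followed at 15.2 ± 3.17 FPKM, CLOCK at 15.2 ± 2.74, CRY1 at 14.4 ± 3.16 and PER1 at 12.1 ± 5.81. NR1D1 stood at 5.46 ± 2.03 FPKM, PER3 at 3.46 ± 0.855, ARNTL at 2.91 ± 1.02, DBP at 2.75 ± 1.52 and PER2 at 2.63 ± 0.907. Only the step from PER1 to NR1D1, 6.68 FPKM, was larger than the SD of both neighbours, though their ranges overlapped (4.56 to 23.7 and 2.97 to 10.6 FPKM) and within the 24 h study PER1 was 11.9 ± 6.40 against 7.13 ± 2.40 FPKM for NR1D1 (SD, n = 5). The other neighbours in this order did not differ beyond their spread. The libraries were enriched by capture, whose efficiency per gene is not given, so the order of levels may partly reflect it.

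The first question was whether these transcripts differed between the 3 studies in tumors that had received no compound. Of 220 combinations of a clock gene and a comparison tested with limma, 1 passed an adjusted p of 0.05. NR1D1 was higher in untreated tumors of the 24 h study than in those of the 3-6 h study. It was the 1 of 10 clock genes called there, where 4.36% of all 13036 genes were called. At an unadjusted p under 0.05 the count was also 1 of 10, against 17.9% of all genes. The median log2 difference of the 10 genes was 0.17, and that of all genes -0.04.

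In the untreated tumors NR1D1 stood at 3.82, 3.99, 3.71, 3.71 and 4.55 FPKM in the 3-6 h study. In the 24 h study it stood at 6.34, 4.07, 6.71, 10.6 and 7.90 FPKM. Of the 24 h tumors, 4 of 5 lay above every 3-6 h tumor, and replicate 2, at 4.07, lay among them. On the log2(FPKM + 1) scale the difference was 0.66 ± 0.20 (SE, adjusted p = 0.0426). In the 1 h study the untreated tumors held 2.97 to 6.82 FPKM, a range that overlapped both. The call was not kept in 9 of 10 fits that each left out 1 of these libraries, where the difference was 0.52 to 0.71 and the adjusted p 0.0639 to 0.174. Without replicate 2 of the 24 h study it was 0.82 (adjusted p = 0.00943), so single tumors of either study decide the call. THRA, the gene that shares exonic bases with NR1D1, stood at 2.06 to 4.20 FPKM at 24 h and 2.14 to 11.5 FPKM at 3-6 h, so its higher values were in the study where NR1D1 was lower, and its part in the NR1D1 value was not tested.

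Vehicle tumors are other animals of the same studies. There NR1D1 stood at 5.73, 6.78, 5.05 and 6.14 FPKM at 24 h. Among the 10 vehicle tumors of the 3-6 h study it ran from 2.55 to 7.72 FPKM, with a median of 4.19. The 24 h values all lay inside that range, and the difference of 0.41 ± 0.19 did not pass (adjusted p = 0.26).

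Other transcripts of the loop and its surroundings passed in the same comparison of untreated tumors, where 4.36% of all genes were called. Of 15 other clock genes tested, ARNTL2, a paralog of ARNTL, rose by 0.78 on the log2 scale (24.3 against 13.8 FPKM, adjusted p = 0.0325). RORA, the receptor that competes with NR1D1 for ROR elements, rose by 0.99 (3.03 against 0.963 FPKM, adjusted p = 0.0222). The 13 other members of that list did not pass, and 5 of 15 were at an unadjusted p under 0.05, against 17.9% of all genes. Among 8 glucocorticoid-responsive genes tested, the metallothionein MT2A (1.23, adjusted p = 0.00829) and ERRFI1, an inhibitor of EGFR signaling (1.32, adjusted p = 0.0426), were higher. The immediate-early nuclear receptor NR4A3 was 1 of 10 immediate-early genes past the threshold (0.78, adjusted p = 0.0318). In vehicle tumors, 24 h against 3-6 h, limma called 0 of 15 other clock genes and 0 of 10 immediate-early genes, against 2.49% of all genes. Of the 8 glucocorticoid-responsive genes, MT2A (1.06, adjusted p = 0.029) and SGK1 (0.79, adjusted p = 0.0446) passed there, and ERRFI1 did not.

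Cell type markers also moved in this comparison. The share of all genes called there was 4.36%. Of 11 mesothelial markers, 3 were called lower at 24 h, namely CALB2 (log2 difference -0.47), LRRN4 (-0.55) and KRT18 (-0.28). The summed level of the 11 markers ran from 2458 to 3824 FPKM at 24 h and from 3273 to 4643 FPKM at 3-6 h. Of 7 host-cell markers tested, CD68 was higher (1.07, 201 against 97.2 FPKM). The summed level of all host-cell markers listed overlapped between the studies (668 to 803 against 640 to 944 FPKM). These human gene values cannot be assigned to host or tumor cells. In vehicle tumors, 24 h against 3-6 h, limma called 0 of 11 mesothelial and 0 of 7 host-cell markers, against 2.49% of all genes. At an unadjusted p under 0.05 it gave 5 and 1 of them, against 16.5% of all genes. The part of the marker shifts of untreated tumors in the NR1D1 difference was not tested.

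**Figure D1:**
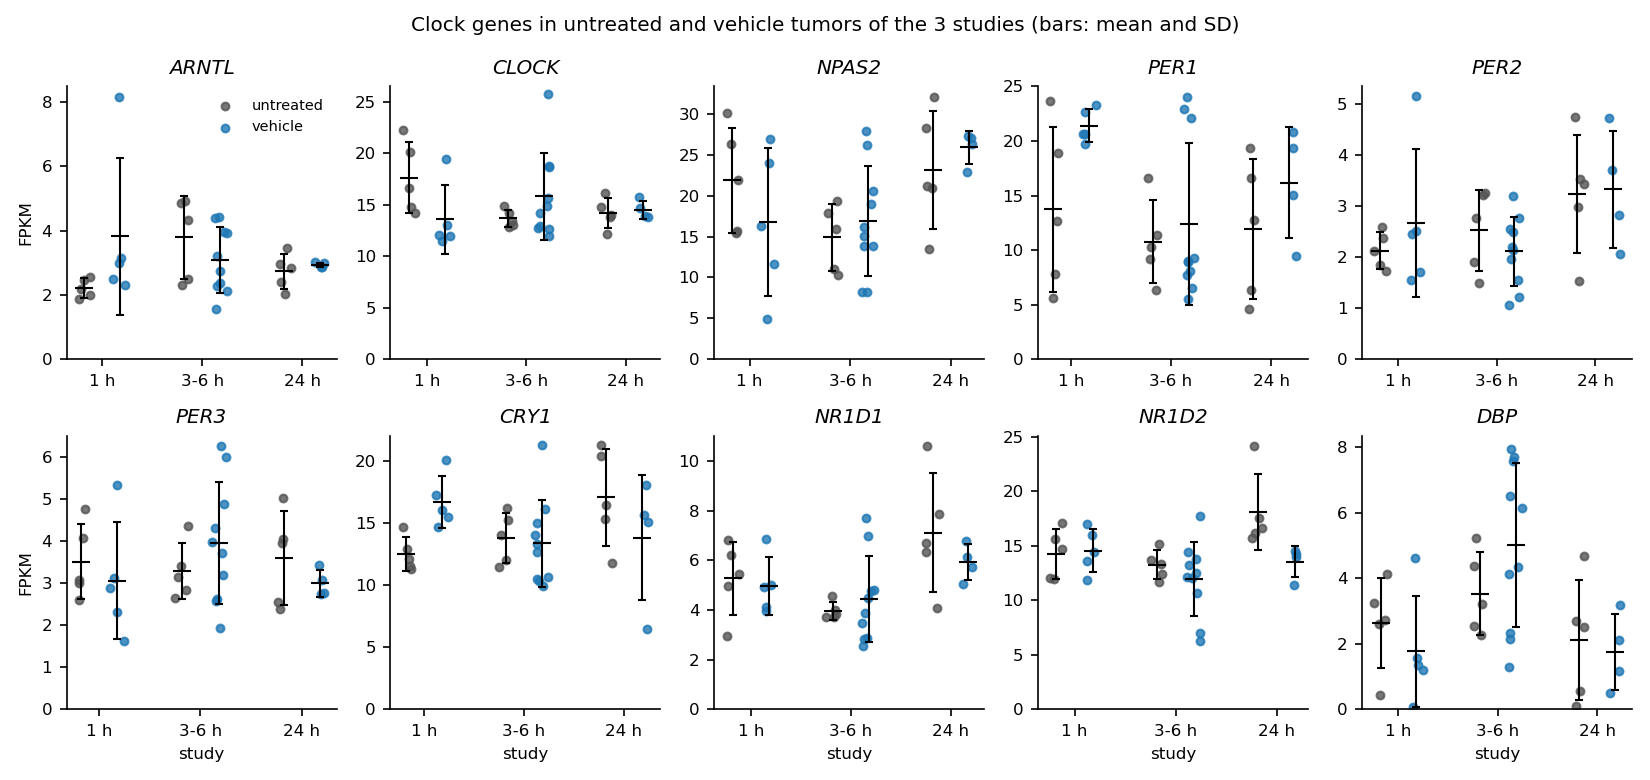
FPKM of the 10 clock genes in untreated (grey) and vehicle (blue) tumors of the 1 h, 3-6 h and 24 h studies, 1 point per tumor, with the mean and SD as bars. The untreated NR1D1 tumors of the 3-6 h study sit between 3.71 and 4.55 FPKM, and 4 of the 5 at 24 h lie above them, while CLOCK, PER2, PER3 and DBP overlap between all groups shown.

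The activators of the loop gave no call between studies. In the other untreated comparisons 0 of 10 clock genes passed, both for 3-6 h against 1 h (0.0997% of all genes called) and for 24 h against 1 h (0.00767%). At an unadjusted p under 0.05 limma gave 1 of 10 in each, against 9.25% and 10% of all genes. That gene was CLOCK both times, in comparisons that share the 1 h tumors. CLOCK stood at 14.8, 14.3, 22.3, 20.1 and 16.7 FPKM in untreated tumors at 1 h. At 3-6 h it stood at 13.1, 12.8, 14.2, 13.5 and 14.8 FPKM, and at 24 h at 12.2, 16.2, 14.8, 13.8 and 14.0 FPKM. The 1 h tumors reached higher, but the groups overlapped, and the log2 differences from 1 h were -0.33 ± 0.14 (adjusted p = 0.424) and -0.28 ± 0.14 (adjusted p = 0.495). In vehicle tumors the CLOCK differences from 1 h had the other sign, 0.20 ± 0.12 at 3-6 h and 0.11 ± 0.15 at 24 h. Neither passed with limma (adjusted p = 0.578 and 0.908).

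Among vehicle tumors 0 of 10 clock genes passed in the 3 comparisons of 3-6 h with 1 h, 24 h with 1 h and 24 h with 3-6 h, in which 0.161%, 0% and 2.49% of all genes were called. At an unadjusted p under 0.05 limma gave 2, 1 and 4 of 10 against 10.9%, 6.84% and 16.5% of all genes. The 4 were DBP, NR1D1, PER2 and NPAS2.

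NPAS2 was narrow in the vehicle tumors of 24 h, at 22.9, 26.3, 27.1 and 27.4 FPKM. At 1 h it ran from 4.91 to 27.0 FPKM over 5 tumors, and at 3-6 h from 8.20 to 27.9 over 10. The 24 h tumors all lay inside the 3-6 h range, and 2 of 4 lay above every 1 h tumor. The difference from 3-6 h was 0.68 ± 0.28 (adjusted p = 0.177). In untreated tumors the corresponding difference was 0.59 ± 0.30 (adjusted p = 0.283), with 13.5 to 32.1 FPKM at 24 h and 10.3 to 19.4 at 3-6 h. ARNTL itself was below 5 FPKM in all controls but 1 vehicle tumor of 1 h, at 8.15. Untreated tumors held 1.87 to 2.57 FPKM at 1 h, 2.31 to 4.93 at 3-6 h and 2.04 to 3.44 at 24 h, and vehicle tumors held 2.32 to 8.15, 1.56 to 4.42 and 2.85 to 3.01 in the same order of studies.

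Of the repressors, PER1 had the widest levels. In the vehicle tumors of the 1 h study it stood at 19.7, 23.3, 20.6, 22.7 and 20.6 FPKM. In untreated tumors of that study it stood at 18.9, 7.81, 12.7, 23.7 and 5.6 FPKM. The vehicle values were close together and lay inside the untreated range, and the difference of 0.77 ± 0.37 did not pass (adjusted p = 1). Against the 10 vehicle tumors of 3-6 h, which ran from 5.49 to 24.1 FPKM with a median of 8.97, the 1 h values were higher than 7 of 10, with a log2 difference of -0.92 ± 0.32 for 3-6 h minus 1 h (adjusted p = 0.206). The 3 remaining vehicle tumors of 3-6 h, at 22.1, 24.1 and 23.0 FPKM, were as high as those of 1 h. PER2, at 1.06 to 5.14 FPKM in all vehicle tumors, PER3 and CRY1 gave adjusted p-values of 0.218 or more in every comparison of controls between studies.

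DBP, the output factor, showed the largest difference between studies in vehicle tumors. It stood at 1.58, 1.35, 0.0761, 4.61 and 1.2 FPKM at 1 h and at 1.17, 0.5, 2.11 and 3.19 FPKM at 24 h. Over the 10 vehicle tumors of 3-6 h it ran from 1.30 to 7.96 FPKM, with a median of 5.24. Of the 3-6 h tumors, 5 of 10 lay above every vehicle tumor of 1 h. The log2 differences were 1.18 ± 0.41 for 3-6 h minus 1 h (adjusted p = 0.217) and -1.10 ± 0.45 for 24 h minus 3-6 h (adjusted p = 0.174). In untreated tumors, DBP stood at 2.26 to 5.24 FPKM at 3-6 h, against 0.445 to 4.13 at 1 h and 0.104 to 4.67 at 24 h. The mean was highest at 3-6 h there too, and neither difference from 3-6 h passed (0.39 ± 0.48 and -0.74 ± 0.48, adjusted p = 0.869 and 0.444).

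NR1D2, the REV-ERB paralog, stood at 16.7, 15.8, 24.2, 16.2 and 17.6 FPKM in untreated tumors at 24 h. At 3-6 h it stood at 11.7, 15.2, 13.7, 12.4 and 13.3 FPKM. These groups did not overlap, but the share of all genes without overlap was not counted, so this is not read as a result. As with NR1D1, the 24 h tumors were the higher ones, but the difference of 0.41 ± 0.22 did not pass (adjusted p = 0.321). In vehicle tumors NR1D2 was 11.4 to 14.5 FPKM at 24 h and 6.22 to 17.7 at 3-6 h, so the 24 h range lay inside the other (0.21 ± 0.20, adjusted p = 0.668).

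Whether oral vehicle and handling moved the clock genes within a study was asked by vehicle against untreated tumors. In each of the 3 studies 0 of 10 passed, and 0% of all genes did. At an unadjusted p under 0.05 limma gave 2 of 10 at 1 h (CLOCK and PER1), and 0 of 10 at 3-6 h and at 24 h, against 4.73%, 4.83% and 4.2% of all genes. Over all 30 combinations the log2 difference lay between -0.51 and 0.77, and the smallest adjusted p was 0.988. CRY1, a repressor of the loop, was 14.7 to 20.1 FPKM in vehicle and 11.3 to 14.7 in untreated tumors at 1 h, where the lowest vehicle tumor exceeded the highest untreated one by less than the rounding (0.39 ± 0.21, adjusted p = 1). NR1D2 was 11.4 to 14.5 FPKM in vehicle and 15.8 to 24.2 in untreated tumors at 24 h, without overlap (-0.38 ± 0.23, adjusted p = 1). The share of all genes without overlap was not counted here either, so neither separation is read as a result.

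K-975 was compared with vehicle of the same study at each dose. No clock gene passed in any of the 9 comparisons: 0 of 90 combinations had an adjusted p under 0.05 with limma, and 9 of 90 an unadjusted p under 0.05. At 1 h the share of all genes called was 0% at 30, 0.00767% at 100 and 0% at 200 mg/kg, and 0 of 10 clock genes had an unadjusted p under 0.05 (4.38%, 4.97% and 3.34% of all genes). At 3-6 h 0.0153%, 0.43% and 0.069% of all genes were called, and 1, 2 and 2 of 10 clock genes had an unadjusted p under 0.05 against 7.03%, 10.3% and 7.23% of all genes. At 24 h 0.0384%, 1.12% and 7.41% of all genes were called, and 1, 0 and 3 of 10 had an unadjusted p under 0.05 against 10%, 14.1% and 21.9%. At the highest dose and latest time 966 genes passed, 7.41% of all, and none of the 10 clock genes did. For 10 genes a count of 0 is near that share, and is not read as a result about them.

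**Figure D2:**
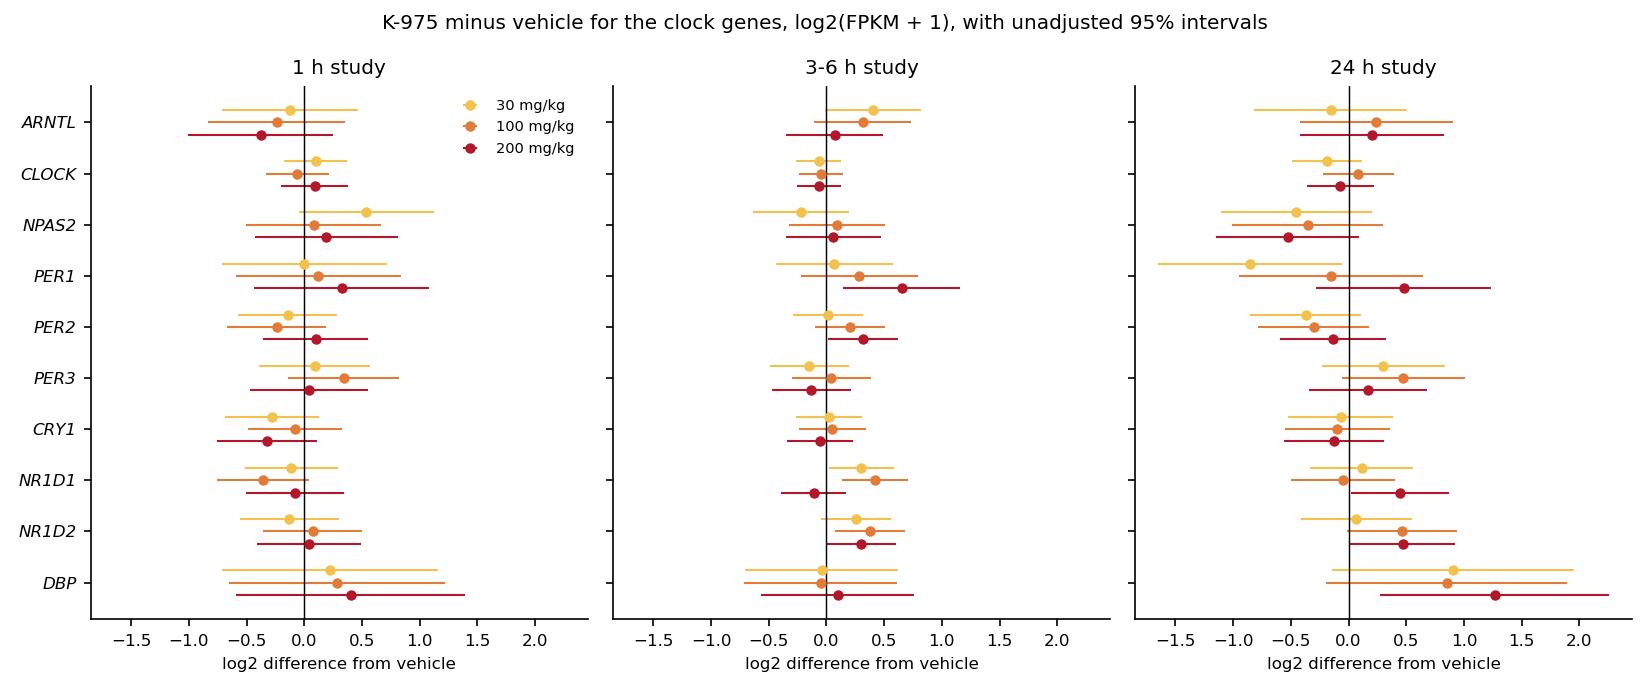
Log2 difference between K-975 and vehicle, on log2(FPKM + 1), for the 10 clock genes at 30 (yellow), 100 (orange) and 200 mg/kg (red) in the 3 studies, with unadjusted 95% intervals. DBP at 200 mg/kg and 24 h has the largest difference, 1.27, and CLOCK has the narrowest intervals, which include 0 at every dose and time.

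DBP had the largest difference of any dose comparison, at 200 mg/kg and 24 h, and its differences there were not ordered by dose. Vehicle tumors held 1.17, 0.5, 2.11 and 3.19 FPKM, and those given 200 mg/kg 13.0, 1.32, 3.93, 4.62 and 8.68 FPKM. The 4 tumors at 100 mg/kg held 5.23, 4.81, 3.19 and 1.94 FPKM, and the 4 at 30 mg/kg 7.46, 1.92, 3.94 and 3.25 FPKM. All but replicate 2 at 200 mg/kg lay above every vehicle tumor, and the lower doses overlapped with vehicle and with the highest dose. The log2 differences were 1.27 ± 0.51 at 200 mg/kg (adjusted p = 0.112), 0.85 ± 0.53 at 100 (adjusted p = 0.498) and 0.90 ± 0.53 at 30 (adjusted p = 0.58). Without replicate 2 at 200 mg/kg the difference was 1.62 and passed (adjusted p = 0.0304), and leaving out any other library gave 0.97 or more and no call. With untreated tumors in place of vehicle it was 1.22 (adjusted p = 0.0971). SPHK2, which shares exonic bases with DBP, stood at 14.6 to 17.5 FPKM at 200 mg/kg and 10.3 to 15.0 in vehicle at 24 h, higher in the same group as DBP, and its part in the DBP value was not tested.

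At 3-6 h DBP did not follow the dose. Its range was 1.30 to 7.96 FPKM in vehicle, 1.61 to 10.8 at 30 mg/kg, 0.981 to 14.3 at 100 and 1.06 to 9.60 at 200, and the log2 differences from vehicle were -0.04, -0.05 and 0.10. At 1 h the dosed tumors held 0.261 to 6.81 FPKM.

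NR1D1 and NR1D2, which like DBP are driven by ARNTL in the known loop, had smaller differences. At 200 mg/kg and 24 h NR1D1 stood at 11.1, 8.27, 7.95, 6.62 and 8.49 FPKM, against 5.05 to 6.78 in vehicle. Of these, 4 of 5 lay above all vehicle tumors, and the difference was 0.44 ± 0.22 (adjusted p = 0.213). THRA, which shares exonic bases with NR1D1, was higher in the same group (4.49 to 10.6 FPKM against 1.90 to 6.21 in vehicle), and its part in the NR1D1 value was not tested. All but the highest NR1D1 value lay within the range of untreated tumors of the same study, 4.07 to 10.6. NR1D2 stood at 32.2, 17.7, 21.3, 9.55 and 21.1 FPKM against 11.4 to 14.5 in vehicle (0.47 ± 0.23, adjusted p = 0.219). At 3-6 h NR1D1 ran from 4.47 to 10.1 FPKM at 100 mg/kg and from 2.55 to 7.72 in vehicle (0.42 ± 0.14, adjusted p = 0.211), but from 2.53 to 6.94 at 200 mg/kg (-0.11 ± 0.14, adjusted p = 0.929), so its differences at 3-6 h did not grow with dose. NR1D2 at 24 h had log2 differences of 0.07 at 30, 0.46 at 100 and 0.47 at 200 mg/kg, none of which passed.

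PER1 varied with the cage group at 200 mg/kg in the 3-6 h study. One cage group held 26.3, 46.8, 22.0, 9.75 and 49.6 FPKM and the other 10.5, 14.1, 11.3, 11.4 and 10.5 FPKM. All but replicate 4 of the former lay above every tumor of the latter, a split named after its values were seen and not tested. Averaged over both, 200 mg/kg minus vehicle was 0.65 ± 0.26 (adjusted p = 0.483). At 24 h PER1 stood at 13.4, 11.0, 29.6, 35 and 33.2 FPKM at 200 mg/kg and at 9.5, 20.9, 19.3 and 15.0 in vehicle, with 2 of the dosed tumors inside the vehicle range (0.48 ± 0.39, adjusted p = 0.508). At 30 mg/kg and 24 h it stood at 4.71, 7.37, 11.7 and 10.5 FPKM, a log2 difference of -0.85 ± 0.41 (adjusted p = 0.469).

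**Figure D3:**
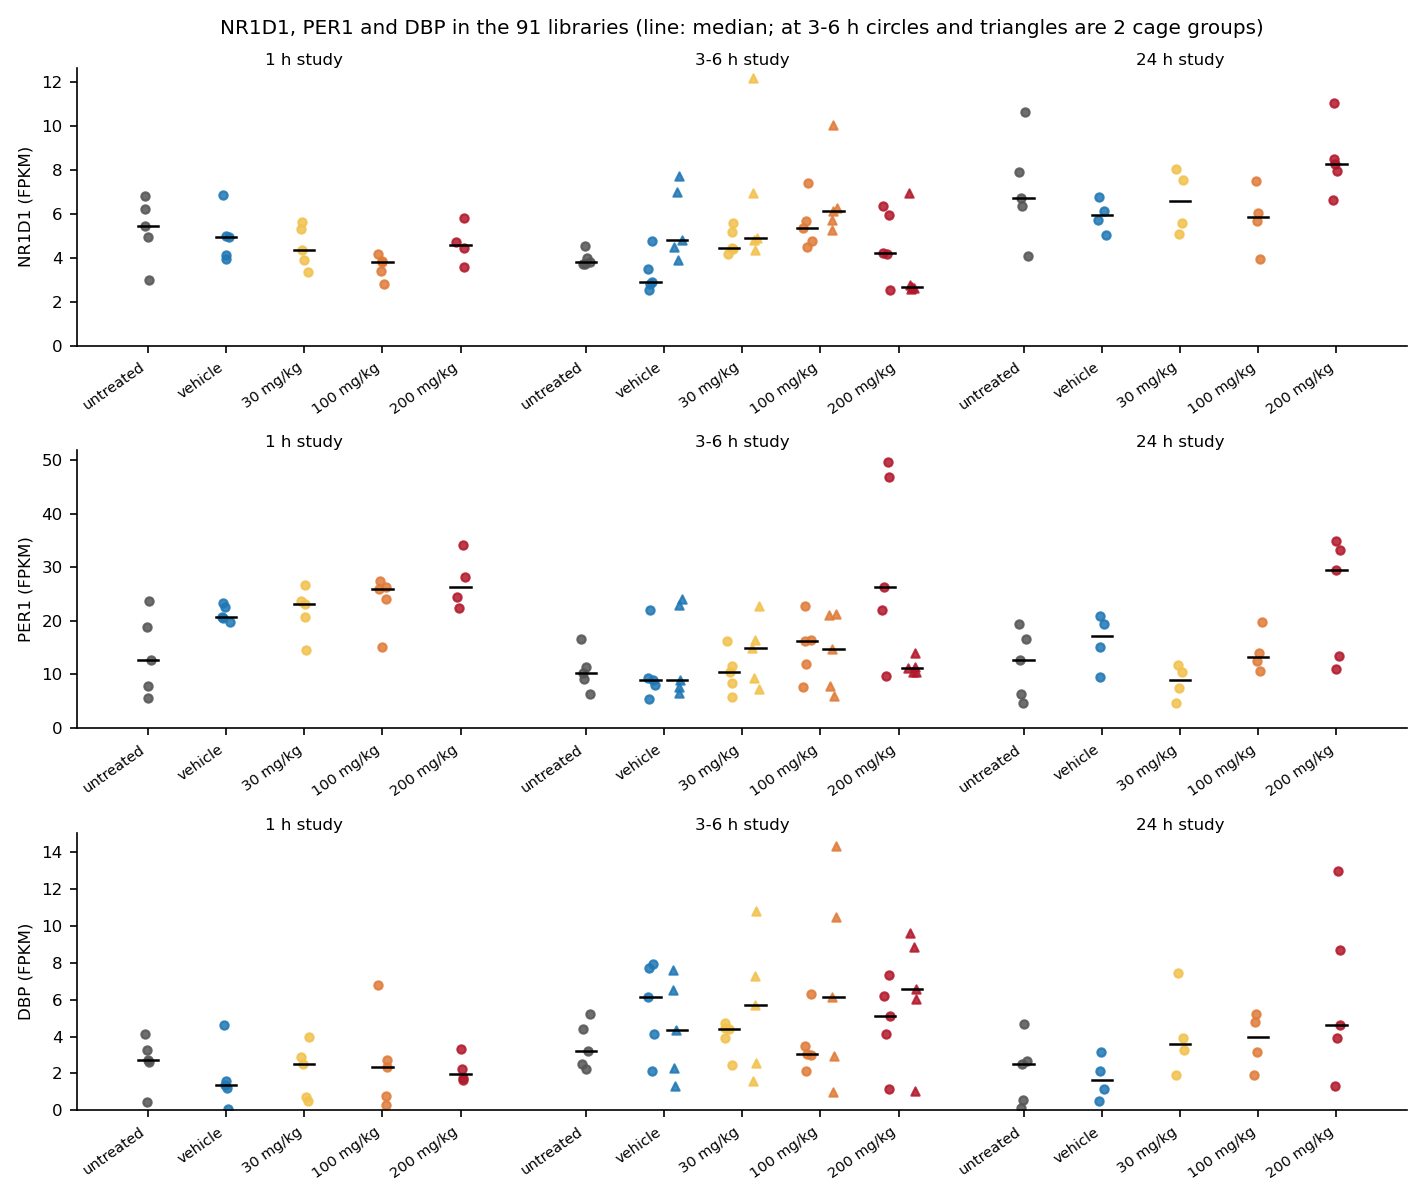
FPKM of NR1D1, PER1 and DBP in the 91 libraries by study and treatment, 1 point per tumor, with the median of each cage group as a line; circles and triangles mark the 2 cage groups of a treatment at 3-6 h. PER1 at 200 mg/kg and 3-6 h reaches 49.6 FPKM in one cage group and 14.1 in the other, and DBP at 24 h is highest in the 200 mg/kg tumors, with 1 of them at 1.32 FPKM.

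None of the remaining members passed at any dose. PER2 at 200 mg/kg and 3-6 h ran from 1.60 to 3.99 FPKM, against 1.06 to 3.19 in vehicle (0.32 ± 0.16, adjusted p = 0.677). ARNTL, CLOCK, NPAS2, PER3 and CRY1 had no unadjusted p under 0.05 at any dose or time. CLOCK had the smallest log2 differences from vehicle of these, between -0.19 and 0.10. Its lowest group, 30 mg/kg at 24 h, held 10.8 to 13.8 FPKM against 13.8 to 15.7 in vehicle (adjusted p = 0.715). CRY1 at 200 mg/kg and 1 h held 11.7 to 14.7 FPKM against 14.7 to 20.1 in vehicle (-0.33 ± 0.22, adjusted p = 1). CRY1 and NPAS2 stand in the YAP1-TEAD effector lists of the study, with positive and negative sign, and neither passed. By the study's definition, lower YAP1-TEAD activity lowers a positive effector and raises a negative one. At 200 mg/kg and 24 h CRY1 stood at 9.90 to 14.8 FPKM against 6.47 to 18.0 in vehicle (-0.13 ± 0.22, adjusted p = 0.795). NPAS2 stood at 9.91 to 26.5 FPKM against 22.9 to 27.4 (-0.53 ± 0.32, adjusted p = 0.332). In this comparison the CRY1 difference had the direction of its listing and the NPAS2 difference the opposite one.

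Of the 15 other clock genes tested, 1 passed in a dose comparison, at 200 mg/kg and 24 h, where 7.41% of all genes were called. It was ARNTL2, which fell by 0.76 on the log2 scale (13.5 against 22.6 FPKM, adjusted p = 0.0393). Of the 11 mesothelial markers, CALB2 (0.39), MSLN (0.40) and KRT19 (0.32) were higher in the same comparison, their summed level running from 3270 to 4193 FPKM against 2924 to 3096 in vehicle. None of the 7 host-cell markers tested passed with limma (1 at an unadjusted p under 0.05), and of 8 glucocorticoid-responsive genes SGK1 was lower (-0.88, adjusted p = 0.0264). The part of these shifts in the ARNTL2 difference was not tested. In the remaining 8 dose comparisons none of the 15 passed with limma, and 0 to 7 had an unadjusted p under 0.05, the most at 100 mg/kg and 24 h, where 14.1% of all genes did. BHLHE40, a repressor that competes at E-boxes, had the highest median FPKM of the list, 170. RORB and HLF were at 0 in 81 and 71 of the 91 libraries and were not tested.

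The effect of 200 mg/kg was compared between studies by its interaction with study. None of the 10 genes passed for 3-6 h minus 1 h (0% of all genes called), 24 h minus 1 h (0.583%) or 24 h minus 3-6 h (1.72%). At an unadjusted p under 0.05 limma gave 0, 0 and 1 of 10 against 4.63%, 13.2% and 16.3% of all genes, and the 1 was NR1D1 (0.55 ± 0.26, adjusted p = 0.265). For DBP the effect at 24 h exceeded that at 3-6 h by 1.17 ± 0.61 (adjusted p = 0.328). Between the higher- and lower-numbered cage groups of the same treatment at 3-6 h, 0 of 10 passed (0.253% of all genes), and 0 of 10 had an unadjusted p under 0.05 with limma (9.85%).

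Spread between tumors of the same group was uneven among members. PER1 had a within-group SD of 0.59 on the log2 scale, larger than 98.5% of 2397 genes of like mean level. NPAS2, at 0.48, exceeded 97.1% of 2456 such genes, and DBP, at 0.78, 96.5% of 1758. CLOCK (0.22), PER2 (0.34) and NR1D1 (0.32) were below the median of genes like them, exceeding 27.6%, 29.8% and 37.6%.

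Within groups, 8 pairs of members whose relation is set by the loop were examined as deviations of each library from its group mean, over 91 libraries. ARNTL and PER3 were opposed, with Pearson r = -0.39 (permutation p = 0.00479, adjusted over the 8 pairs 0.0383) and Spearman rho = -0.343 (permutation p = 0.00508, adjusted 0.0406). Without the 2 libraries farthest from the median in ARNTL r was -0.296. The relation was not alike in the 3 studies, at 0.00864 over 24 libraries of 1 h, -0.356 over 45 of 3-6 h and -0.821 over 22 of 24 h. Replicate 4 of 200 mg/kg at 24 h, with ARNTL at 10.9 and PER3 at 1.02 FPKM, weighs most in it. Without that tumor r was -0.284 over 90 libraries (permutation p = 0.034, adjusted 0.136) and -0.635 within 24 h, so the call rests on it. By the size of low values, its depth was 0.774 times the median of libraries, the lowest of its group. Other high ARNTL values at 3-6 h were 11.8 and 10.1 FPKM, also in the libraries of lowest depth of their cage groups (0.744 and 0.461). A value of 11.1 FPKM was in the library of highest depth of its cage group (0.850). The part of depth in these values was not tested.

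ARNTL and DBP, the pair known for opposite phases, had r = -0.308 (permutation p = 0.0148, adjusted 0.0592) and rho = -0.26 (permutation p = 0.0263, adjusted 0.0996). By study r was -0.167 at 1 h, -0.395 at 3-6 h and -0.265 at 24 h, and without the 2 farthest libraries it was -0.348. ARNTL with NR1D1 (r = -0.198, adjusted permutation p = 0.183) and NR1D1 with DBP (r = 0.211, adjusted permutation p = 0.198) did not pass. Neither did ARNTL with NR1D2 (-0.103) or with NPAS2 (-0.0683), DBP with PER3 (0.165) or PER1 with PER2 (0.156), whose adjusted permutation p-values were 0.252 to 0.596. Over all 45 pairs of members, r lay between -0.39 and 0.379, the latter for NR1D1 with PER2.

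**Figure D4:**
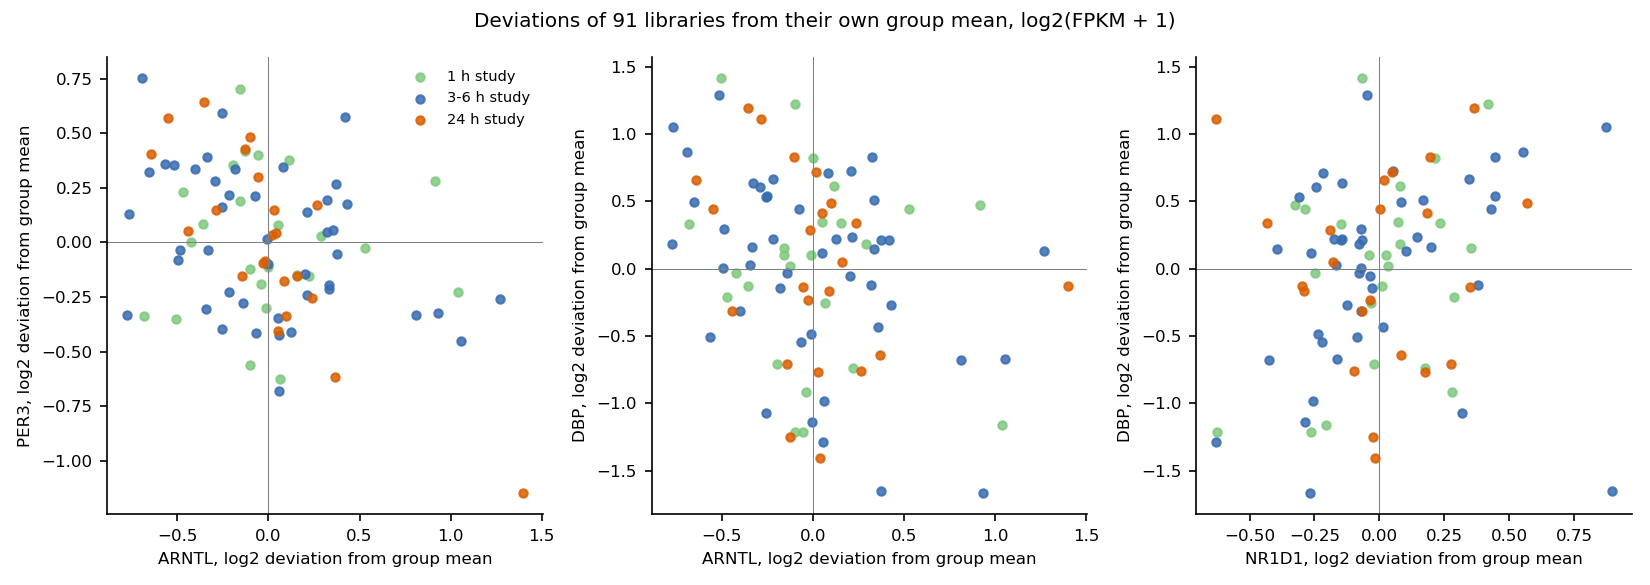
Deviations of ARNTL against PER3, ARNTL against DBP and NR1D1 against DBP from their own group mean, on log2(FPKM + 1), 1 point per library, colored by study. The ARNTL and PER3 cloud slopes down (r = -0.39), with 1 tumor of the 24 h study far at the lower right.

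The genes whose levels ran most like DBP over the 91 libraries were GRB7 (Pearson r 0.79), ERV3-1 (0.76), ITLN1 (0.75), LGI4 (0.74) and ANOS1 (0.74). These correlations describe libraries that share batches and treatments, and carry no test. GRB7, an SH2 adaptor of receptor tyrosine kinases, kept r = 0.74, 0.86 and 0.65 within groups of the 1 h, 3-6 h and 24 h studies. ITLN1 (intelectin-1, a secreted lectin of mesothelial and intestinal cells) ranged from 2.99 to 1773 FPKM and kept 0.80, 0.72 and 0.61. At the opposite end were the keratin KRT34 (-0.74), CALU (-0.71) and the cytokine IL11 (-0.71). For ARNTL the highest values were low, at 0.50 for TP53I3, 0.48 for MYEF2, 0.42 for ACSF3, 0.39 for CCP110 and 0.39 for PPP5C. The clock genes under study were left out of this ranking, so their absence from it is not a result. None of the genes named for DBP or ARNTL was among the other clock genes listed.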

How the data were processed

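Tumor RNA was sequenced after capture enrichment of the libraries, and the authors deposited 1 table of FPKM values per gene and library. STAR and GRCh38 are named in the submitters' processing notes. The quantifier, its use of strand and the treatment of mouse reads are not given in the sources used here. For the table, 316 further entries of 284 gene IDs were left out (the entry with the highest mean was kept), and 32 blank cells were read as 0. Table starts count from 0 and were written from 1: on that basis 14986 loci, 8 of 10 members among them, are those of GENCODE 29. Values were log2(FPKM + 1), for genes at 1 FPKM or more in at least 4 of the libraries with 10000 or more such genes. limma 3.58.1 (R 4.3.3) was fitted with 1 coefficient for each of 19 groups, with trended and robust empirical Bayes and Benjamini-Hochberg adjustment over all genes of a comparison. Tests were two-sided, and the 95% intervals are not adjusted. Pairs were tested with 100000 permutations within groups (Python 3.11.15, NumPy 2.4.6, SciPy 1.17.1).

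The depth of the libraries is not stated. From the size of low values it differed 0.461 to 1.81 times from the median among the 91 libraries, and p-values measure the spread between tumors of separate mice. The genes named are the 10 members in every comparison, other clock genes past an adjusted p of 0.05, glucocorticoid-responsive and immediate-early genes past it where a member was, and the 5 genes most like ARNTL and DBP. Members and lists were chosen with earlier results of these data known. Alternatives were all 94 libraries, a pseudocount of 0.1, no filter, quantile normalization, only the groups compared, each library left out, and untreated in place of vehicle.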

Additional observations from a re-analysis of the deposited data

Results flagged for a closer look

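Each gene was checked in each of the 19 groups for a single library whose gap to its nearest neighbour, relative to the range of the group on log2(FPKM + 1), exceeded the 95% critical value of Dixon's test. Of 190 combinations 16 did (8.42%), where chance gives about 1 in 20. None of the differences in the effect of 200 mg/kg between studies was past the threshold.

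One tumor stood apart in 3 genes. Replicate 2 of the higher-numbered 200 mg/kg cage group at 3-6 h (cage group 5) held NR1D1 at 6.94 FPKM against 2.56 to 2.77 in the other 4, PER1 at 14.1 against 10.5 to 11.4, and DBP at 1.06 against 6.01 to 9.60, so NR1D1 and PER1 were high where DBP was low.

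Among the activators, ARNTL was 8.15 FPKM in vehicle 1 h replicate 3 (others 2.32 to 3.16). That library had the lowest depth of its group, 0.814 times the median by the size of low values. CLOCK was 19.5 in vehicle 1 h replicate 4 (others 11.5 to 13.0) and 19.7 in replicate 2 of cage group 9, given 30 mg/kg at 3-6 h (others 12.9 to 14.1). NPAS2 was 30.8 in 200 mg/kg 1 h replicate 2 (others 12.6 to 14.3).

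Among the repressors, PER1 was 15.1 in 100 mg/kg 1 h replicate 1 (others 24.0 to 27.5). PER2 was 1.60 in replicate 4 of cage group 4, given 200 mg/kg at 3-6 h (others 2.73 to 3.17), and PER3 was 5.89 in 30 mg/kg 24 h replicate 2 (others 3.36 to 3.44). DBP was 0.445 in untreated 1 h replicate 2 (others 2.60 to 4.13).

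The REV-ERB genes account for 5 further values. NR1D1 was 10.1 FPKM in replicate 1 of cage group 7, given 100 mg/kg at 3-6 h (others 5.26 to 6.29). NR1D2 was 9.53 in replicate 2 of cage group 4 (others 15.7 to 17.7), 7.21 in replicate 5 of cage group 6, given 100 mg/kg at 3-6 h (others 14.2 to 17.0), 24.2 in untreated 24 h replicate 3 (others 15.8 to 17.6) and 11.4 in 30 mg/kg 24 h replicate 4 (others 14.8 to 15.5).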

How the results depend on the processing

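The clock genes called in untreated tumors, 24 h minus 3-6 h, fell from 1 to 0 with all 94 libraries (NR1D1 0.66, adjusted p = 1), without the filter on low values (adjusted p = 0.0525) and with only the groups compared (adjusted p = 0.106), and were 0 to 1 over the fits that left out 1 library. With a pseudocount of 0.1 and with quantile normalization NR1D1 kept its call (adjusted p = 0.0454 and 0.0323). At 30 mg/kg against vehicle at 24 h, 2 clock genes were called with all 94 libraries, CLOCK and PER1 (PER1 -1.49, adjusted p = 0.041), in a fit that takes in the library with 702 genes at 1 FPKM. In that library all 10 clock genes were at 0 FPKM. At 200 mg/kg against vehicle at 24 h the count was 0 to 1 over the fits that left out 1 library, the 1 being DBP. Within-group r of ARNTL and DBP passed with all 94 libraries (-0.313, adjusted permutation p = 0.0341) and with quantile normalization (-0.34, adjusted permutation p = 0.0291), as did NR1D1 and DBP with all 94 (0.468, adjusted permutation p = 0.00312). The 3 libraries left out of the main fit all held NR1D1 and DBP at 0 FPKM, unlike any of the 91. The sign turned with all 94 libraries for ARNTL and NPAS2 (0.00923) and for ARNTL and PER3 (0.0216). Without replicate 4 of 200 mg/kg at 24 h, left out after seeing the data, ARNTL and PER3 gave -0.284 (not past the threshold) and ARNTL and NR1D2 0.0333. The cause of these changes was not tested. The other 462 settings of counts and pairs kept their side of the threshold or stayed within 1.5 times the main count.

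No paired analysis was possible because the replicate numbers follow the order of the samples and pair no tumors across groups. Depth limits the lowest members: DBP, ARNTL and PER2 stood near 2 to 3 FPKM, where the pseudocount of 1 shrinks fold changes.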
